A study of Monodelphis domestica and Mus musculus with 26 samples.

Results

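The 10 protein-coding genes described here are those whose transcript level, in an earlier reading of these data, moved in opposite directions between round and elongating spermatids of the mouse and the opossum. They were taken by symbol: IMPA1, BPNT2, YIPF5, CCDC91, PPP2R2B, ABL1, WNT3, LRRC49, LIN7C and PKHD1L1, that is 10 of the 10751 genes matched by symbol between the species. Because they were chosen by that measured change, their round and elongating values are given as a description, with no test. The testes of 3 C57BL6/J mice and 3 gray short-tailed opossums (Monodelphis domestica), all adult, were dissociated for droplet-based single-cell RNA sequencing with 1 library per animal, and the series also held bulk RNA sequencing of 20 opossum testis libraries: 2 of 1 month (1M), 4 of 2 months (2M), 4 of 3 months (3M), 3 of 4 months (4M) and 7 of adults. No sample carried a mutation or treatment in the labels. In bulk, 16 libraries were polyA-selected, and 2M replicates 2 to 4 and adult replicate 2 were depleted of rRNA.

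In spermiogenesis the haploid round spermatid builds an acrosome from Golgi vesicles, grows a flagellum, and then elongates while protamines take the place of histones. Transcription stops as the chromatin condenses, so that late proteins are made from stored messengers, and a messenger's share of the cell's RNA depends on what else is kept or lost. The 10 genes belong to different systems. IMPA1, the lithium-sensitive inositol monophosphatase, and BPNT2, a Golgi phosphatase that breaks down the by-product of sulfation, are members of 1 phosphatase superfamily. YIPF5 is a membrane protein of traffic between the endoplasmic reticulum and the Golgi, and CCDC91 binds GGA sorting adaptors at the trans-Golgi. PPP2R2B is a B-type regulatory subunit of the phosphatase PP2A, ABL1 a tyrosine kinase acting on the actin skeleton, and WNT3 a secreted ligand of the canonical WNT pathway. LRRC49 is a subunit of the tubulin polyglutamylase complex, which modifies axonemal microtubules, LIN7C is a PDZ scaffold protein, and PKHD1L1 is a large fibrocystin-like membrane protein.

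The genes lie on 8 mouse chromosomes and 5 opossum chromosomes. On mouse build GRCm39 the loci were chr3:10377016-10396499 for IMPA1, chr4:4744903-4793382 for BPNT2, chr6:147377290-147534272 for CCDC91, chr11:103664976-103708853 for WNT3, chr9:60476142-60600004 for LRRC49 and chr15:44320818-44464765 for PKHD1L1. ABL1 (chr2:31578333-31697112) and LIN7C (chr2:109721004-109731348) share chromosome 2, and YIPF5 (chr18:40336949-40352511) and PPP2R2B (chr18:42770497-43216192) share chromosome 18. YIPF5 and PPP2R2B, which went opposite ways at elongation in each species, were also close to each other on opossum chromosome 1, at 336982991 to 336994181 and 340711197 to 341014750 in the deposited bulk tables, whose build is not given in the sources used here. IMPA1, BPNT2 and PKHD1L1 all lie on opossum chromosome 3. Annotated genes overlap IMPA1, CCDC91, PPP2R2B, ABL1, WNT3, LRRC49 and LIN7C in the mouse and IMPA1, CCDC91 and ABL1 in the opossum. How the authors' counting divided reads between overlapping genes is not given in the sources used here.

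The mouse matrices held 10861 to 13451 barcodes and 45395185 to 65263953 estimated UMIs per library, and the opossum matrices 10916 to 12856 barcodes and 22710048 to 37747724 UMIs. After filtering, 7208 to 8714 mouse cells and 5126 to 7476 opossum cells were kept per library. Mouse replicates 1 and 2 shared 198 barcodes, 1.82% of the smaller library. Each of them shared 0 to 2 barcodes with any other library. Mouse replicate 3 shared 30 to 38 with each opossum library, and the opossum libraries shared 30 to 43 with each other. The part of this split in differences between mouse libraries or between species was not tested. Clusters were named from preset markers into 9 classes: spermatogonia, spermatocytes, round and elongating spermatids, and, of the somatic cells, the immune, endothelial, peritubular or stromal, Leydig and Sertoli classes. A mouse cluster of 2850 cells led by hemoglobin genes was left unnamed, and mouse replicate 3 had too few immune and endothelial cells (under 20) for a value. As for the elongating label, PRM1, a protamine, was at 38583 to 74423 CPM (counts scaled to the same total in each library) in the 3 mouse elongating clusters and at 17987 to 116063 CPM in the 3 opossum ones. The label of the shallowest of these opossum clusters depended on the clustering. With the members kept in it, only 2 opossum clusters, of 641 and 468 cells, were named elongating, and the shallow cluster named Sertoli had 2536 cells in place of 1538. The opossum class named Sertoli rests on 4 markers in each of its 3 clusters, none of them among the leading genes, and 2 of the clusters had hemoglobin HBE1 or ALAS2, genes of red blood cells, among those, so that its values are given under that name and not read as those of Sertoli cells. Levels below are CPM of the UMIs summed over the cells of a class in each library, and SDs are over libraries.

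Of the 10 genes, 5 were higher in elongating than in round spermatids of the mouse and lower in those of the opossum. Over all genes, edgeR's quasi-likelihood test on counts summed per library and class called 58.2% of 14454 in the mouse (24.8% higher and 33.3% lower in elongating spermatids) and 52% of 11625 in the opossum (22% higher and 30.1% lower). The test scales libraries by TMM factors, so its folds differ from ratios of the CPM printed here. On library totals with no factors, the scale of CPM, 1380 genes were called higher and 8786 lower in the mouse (3589 and 4817 with TMM) and 1234 and 5278 in the opossum (2552 and 3496), and the median over all genes was -2.18 and -1.38 on the log2 scale in place of -0.58 and -0.21. A call here and below needs a p of less than 0.05 after Benjamini-Hochberg adjustment and an absolute log2 difference of at least 1, and nothing is read from the members' own count in this contrast. CCDC91 was the most abundant of them, at 267, 201 and 288 CPM in mouse round spermatids of replicates 1 to 3 and 1574, 1658 and 1671 CPM in elongating ones, a 6.49-fold difference of the means. In the opossum CCDC91 was at 513, 704 and 630 CPM in round and 13.0, 27.8 and 13.1 CPM in elongating spermatids. CCDC91 was higher in elongating spermatids of each mouse library and lower in those of each opossum library, and in both species the stages did not overlap. PPP2R2B was at 50.2, 39.8 and 152 CPM in mouse round and 431, 464 and 471 CPM in mouse elongating spermatids. Opossum PPP2R2B was at 42.6, 19.5 and 30.3 CPM in round spermatids and at 0, 0.200 and 0 CPM in elongating ones, where 3 counts per library would be 0.967, 0.319 and 0.756 CPM. The opossum elongating level thus lay under the level of 3 counts in each library, and mouse replicate 3 stood above the other two in round spermatids.

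BPNT2 showed the same pattern at lower levels. It was at 38.4, 32.2 and 32.7 CPM in mouse round and 197, 291 and 203 CPM in mouse elongating spermatids. In the opossum it was at 76.9, 77.9 and 57.8 CPM in round and 1.19, 7.86 and 0.953 CPM in elongating spermatids. WNT3 had the largest ratio of the 5 in the mouse, 12.3-fold between means, from 13.7, 10.8 and 12.9 CPM to 148, 168 and 143 CPM. Opossum WNT3 was weak throughout, at 34.7, 3.86 and 8.96 CPM in round spermatids and 0.540, 0.0982 and 0.252 CPM in elongating ones. All 3 opossum elongating values of WNT3 were under the level of 3 counts, and 1 library held most of the round signal. ABL1 differed least in the mouse, from 7.77, 5.17 and 20.7 CPM to 47.0, 54.9 and 48.4 CPM. In the opossum it was the second most abundant member in round spermatids, at 423, 442 and 531 CPM, and stood at 7.96, 5.52 and 2.75 CPM in elongating ones, where its mean was 86.0-fold lower.

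The other 5 genes were lower in elongating spermatids of the mouse and higher in those of the opossum. IMPA1 was at 53.9, 64.6 and 66.4 CPM in mouse round spermatids and 0.719, 0.619 and 0.695 CPM in elongating ones. In the opossum it was at 204, 275 and 336 CPM in round and 2072, 2627 and 1724 CPM in elongating spermatids, the highest level of any member in any class. The elongating means of IMPA1 were 0.678 ± 0.0520 CPM in the mouse and 2141 ± 455 CPM in the opossum (SD, n = 3). YIPF5 was at 56.2, 86.4 and 43.5 CPM in mouse round and 0.349, 0.371 and 0.485 CPM in mouse elongating spermatids. Opossum YIPF5 was at 46.1, 41.9 and 82.9 CPM in round and 501, 428 and 700 CPM in elongating spermatids. The round levels of YIPF5 overlapped between the species, and its elongating levels did not.

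PKHD1L1 was weak in the mouse and abundant in the opossum. It was at 1.76, 1.91 and 11.6 CPM in mouse round spermatids and was listed at 0 in mouse elongating ones of each library, where 3 counts would be 0.295, 0.387 and 0.330 CPM. In the opossum it was at 69.4, 105 and 230 CPM in round and 713, 707 and 1097 CPM in elongating spermatids. LRRC49 was at 55.0, 57.3 and 51.3 CPM in mouse round and 0.155, 0.550 and 0 CPM in mouse elongating spermatids, and LIN7C at 124, 182 and 158 CPM against 0.643, 0.60 and 0.197 CPM. Their opossum differences were smaller. Opossum LRRC49 was at 399, 313 and 391 CPM in round and 657, 565 and 1247 CPM in elongating spermatids. Opossum LIN7C was at 33.4, 15.8 and 36.3 CPM in round and 57.9, 78.3 and 142 CPM in elongating spermatids. Neither gene's opossum stages overlapped.

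**Figure D1:**
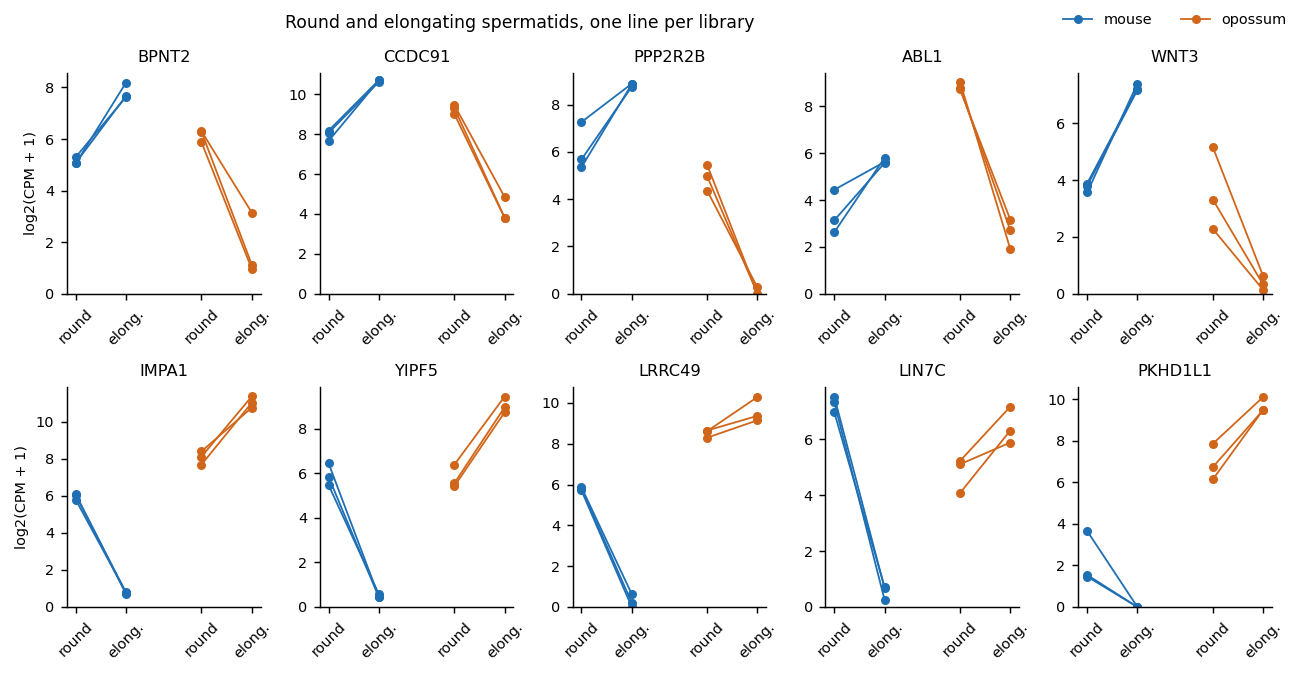
CPM of each gene in round and elongating (elong.) spermatids, as log2(CPM + 1) on the y axis, with 1 line per library, mouse in blue and opossum in orange. The upper row holds the 5 genes higher in elongating spermatids of the mouse and the lower row the 5 higher in those of the opossum; LRRC49 and LIN7C have the flattest opossum lines.

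The opossum values of LRRC49 and LIN7C rested on 1 cluster. Opossum elongating spermatids fell into 3 clusters, 1 of 1092 cells and shallow (a median depth 0.615 times that of its libraries, 754 of its cells from replicate 1), 1 of 641 cells with the most PRM1 (116063 CPM), and 1 of 631 deep cells (14442 UMIs in the median cell, 8.15 times its libraries). LRRC49 was at 1026 CPM in the deep cluster, 334 in the shallow one and 69.1 in the one with the most PRM1. LIN7C was at 125, 42.9 and 3.23 CPM in the same order. Both genes were lowest where PRM1 was highest. IMPA1 was instead highest there, at 4836 CPM in the cluster with the most PRM1, 1621 in the deep one and 992 in the shallow one, and YIPF5 (736, 466 and 225 CPM) and PKHD1L1 (992, 783 and 447 CPM) followed it. Without the deep cluster the opossum elongating means were 181 ± 91.8 CPM for LRRC49 and 21.5 ± 15.1 CPM for LIN7C (SD, n = 3). That of LRRC49 lay under its round mean of 368 CPM, and that of LIN7C was within the spread of its round mean of 28.5 ± 11.1 CPM, so that neither gene was still seen to be higher in opossum elongating spermatids. IMPA1, at 3074 ± 1478 CPM, YIPF5, at 529 ± 143 CPM, and PKHD1L1, at 816 ± 246 CPM, stayed above their round means.

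Round spermatids of both species were also mixed. Of the 2 opossum clusters, the smaller, of 292 cells, had WNT3 at 52.8 CPM and ABL1 at 82.3 CPM, against 6.24 and 547 CPM in the one of 1361 cells. LRRC49 (612 and 309 CPM) and LIN7C (68.1 and 18.7 CPM) were also higher in the smaller cluster. So were IMPA1 (354 and 257 CPM) and PRM1 (4731 and 3268 CPM), and the part of elongating-spermatid RNA in the round levels was not tested. In the mouse, YIPF5 was at 86.2 and 96.3 CPM in 2 of the 4 clusters, at 14.5 in another and 4.10 in the last, and LRRC49 at 73.1, 108, 13.3 and 8.09 CPM in the same clusters. CCDC91 ran the other way, at 81.6, 152, 647 and 567 CPM, and so did WNT3, at 3.98, 7.07, 40.9 and 26.4 CPM. PRM1 was at 1276 and 2421 CPM in the first 2 of these clusters and at 12776 and 7033 CPM in the others. Within the mouse class, then, the last 2 clusters, with more PRM1, had more CCDC91 and WNT3 and less YIPF5 and LRRC49 than the first 2. Within each pair, however, YIPF5 and LRRC49 were higher in the cluster with more PRM1. ABL1 (3.27, 41.1, 11.2 and 18.7 CPM) and PKHD1L1 (2.68, 8.88, 0.363 and 9.64 CPM) did not split in this way.

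The share of cells with a UMI of each gene was also counted. Fractional counts were first rounded up, so any estimated count above 0 was taken as a UMI, which can raise low shares. Cells were thinned to 1000 UMIs each, since unthinned shares follow depth, which ran from a median of 1390 to 8701 UMIs over the spermatid classes. CCDC91 was seen in 76.6% to 78.2% of thinned mouse elongating spermatids and 25.9% to 34.0% of round ones (unthinned, 95.4% to 99.4% and 50.7% to 72.1%). In mouse spermatocytes, where its CPM was low, 3.04% to 13.1% of thinned cells had a CCDC91 UMI. In the opossum CCDC91 was seen in 2.15% to 5.50% of elongating and 25.3% to 32.8% of round spermatids. IMPA1 was seen in 67.3% to 73.3% of thinned opossum elongating spermatids (80.0% to 88.3% unthinned) and 28.3% to 36.9% of round ones, against 0% to 7.21% of opossum spermatogonia. In mouse elongating spermatids IMPA1 was seen in 0.417% to 0.496% of thinned cells. PKHD1L1 was seen in 33.1% to 53.4% of opossum elongating spermatids after thinning and was listed at 0 in the mouse ones.

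Other members were seen in fewer cells. After thinning, PPP2R2B was seen in 34.2% to 37.4% of mouse elongating spermatids, BPNT2 in 14.5% to 21.6% and WNT3 in 12.8% to 14.8%. Mouse ABL1 was seen in 4.22% to 5.42% of elongating and 1.05% to 4.02% of round spermatids, a narrow gap at this depth. In the opossum ABL1 was seen in 29.6% to 33.0% of round and 1.07% to 2.69% of elongating spermatids. Opossum LRRC49 was seen in 20.8% to 42.3% of elongating and 25.6% to 36.9% of round spermatids. These LRRC49 shares overlapped although its CPM did not, so no order is read from them. Opossum LIN7C was seen in 3.33% to 9.31% of elongating and 1.76% to 3.66% of round spermatids, which also overlapped.

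**Figure D2:**
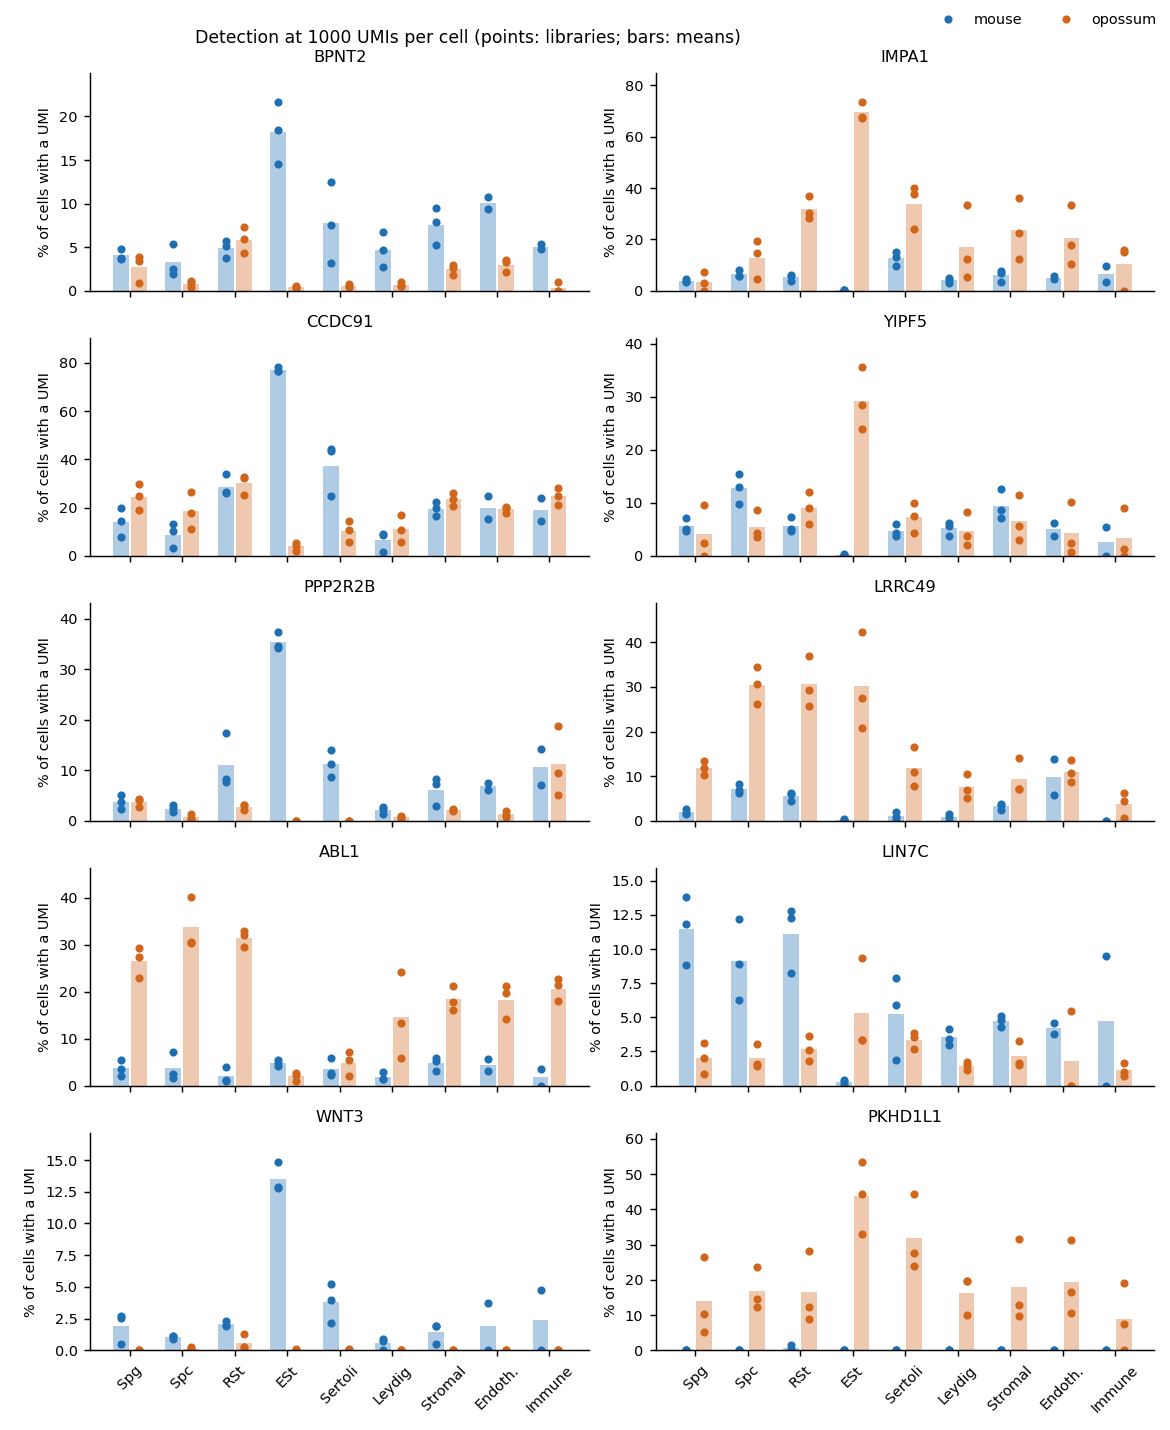
Percent of cells with a UMI of each gene (y axis) in 9 cell classes after thinning to 1000 UMIs per cell, with a point per library, bars at the mean, mouse in blue and opossum in orange. Spg, Spc, RSt and ESt are spermatogonia, spermatocytes, round and elongating spermatids; mouse CCDC91 and opossum IMPA1 in elongating spermatids reach the largest shares, up to 78.2% and 73.3%.

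Across all classes, elongating spermatids had the highest mean of BPNT2, CCDC91, PPP2R2B and WNT3 in the mouse and of IMPA1, YIPF5, LRRC49, LIN7C and PKHD1L1 in the opossum, the order resting on the deep cluster for LRRC49 and LIN7C. ABL1 was the exception: its mouse level was highest in spermatogonia (50.1, 48.6 and 57.0 CPM), which overlapped elongating spermatids. Mouse Sertoli cells came second to elongating spermatids for BPNT2, CCDC91, PPP2R2B and WNT3. PRM1, which was also seen in round spermatids, stood in that class at 33.7%, 37.9% and 13.4% of its elongating level, and its source there was not tested. CCDC91 stood at 37.7%, 36.1% and 13.7% of its own elongating level in the same libraries, WNT3 at 38.2%, 42.6% and 13.7%, and PPP2R2B at 37.6%, 26.8% and 14.2%. BPNT2 did not follow PRM1 in replicate 3, at 44.8%, 44.2% and 42.2%. The part of spermatid RNA in these Sertoli levels was not tested.

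IMPA1 and YIPF5 had other homes in the mouse. IMPA1 was highest in mouse Sertoli cells, at 135, 123 and 201 CPM, above spermatocytes at 74.7, 83.4 and 74.3 CPM, with no overlap. YIPF5 was highest in mouse spermatocytes, at 147, 184 and 112 CPM, overlapping peritubular or stromal cells at 111, 116 and 79.4 CPM. LRRC49 also had its highest mean in mouse spermatocytes, at 77.4, 79.9 and 81.4 CPM, overlapping endothelial cells at 56.9 and 95.9 CPM. LIN7C had its highest mean in mouse round spermatids, which overlapped spermatogonia at 91.7 to 134 CPM. In the opossum IMPA1 was at 290 and 213 CPM in the class named Sertoli of replicates 1 and 2 and higher in replicate 3, and PRM1 there was at 11.1%, 6.36% and 24.9% of its elongating level over the 3 libraries and IMPA1 at 14.0%, 8.11% and 19.5% of its own. Opossum PKHD1L1 was at 259, 263 and 477 CPM in that class, 36.3%, 37.2% and 43.5% of its elongating level and so a larger share than that of PRM1. Whether spermatid RNA set these levels was not tested.

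ABL1, PPP2R2B and WNT3, all low in opossum elongating spermatids, had distinct profiles there. ABL1 was broad. It was highest in spermatocytes, at 564, 442 and 628 CPM, overlapped round spermatids, and was at 234 to 333 CPM in spermatogonia and in immune, endothelial and peritubular or stromal cells, apart from 363 CPM in 1 spermatogonial library. Elongating spermatids had the lowest ABL1 of the 9 opossum classes, with no overlap with the next, the class named Sertoli. PPP2R2B was highest in opossum immune cells, at 177, 77.3 and 128 CPM, above spermatogonia at 67.2, 35.4 and 59.4 CPM, and was at 0, 0.133 and 0 CPM in the class named Sertoli. WNT3 passed 3 CPM in no opossum class other than round spermatids.

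**Figure D3:**
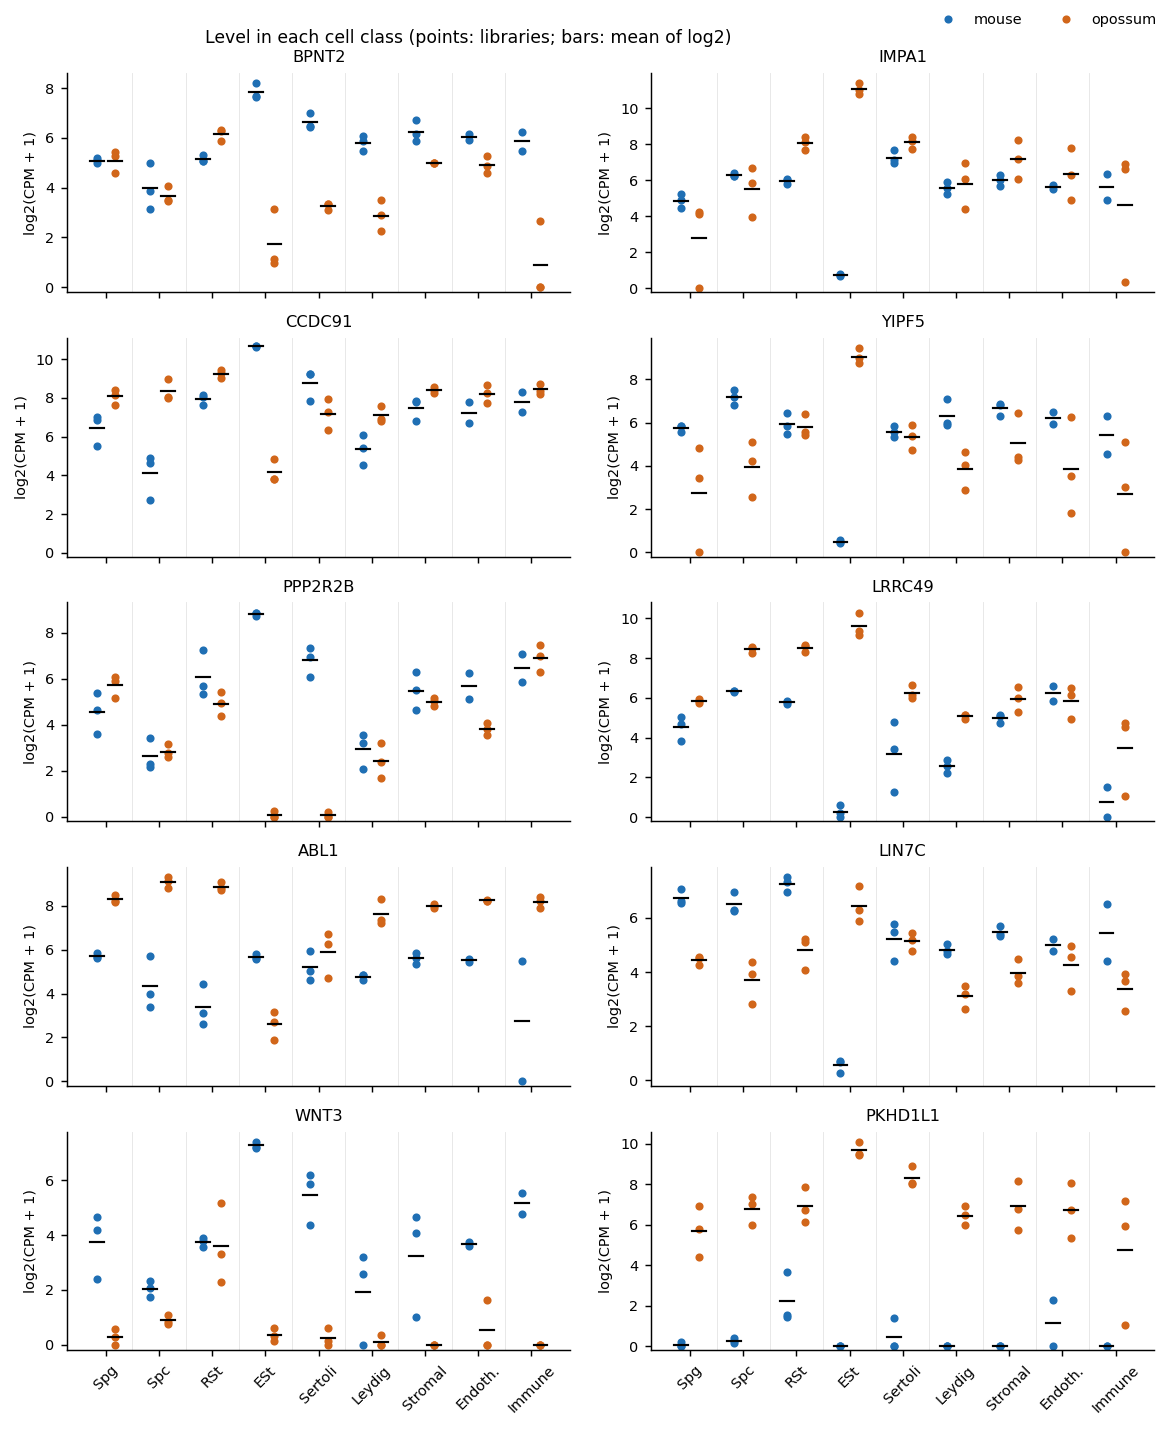
Level of each gene in 9 cell classes as log2(CPM + 1) on the y axis, with a point per library, bars at the mean of the log2 values, mouse in blue and opossum in orange, and classes abbreviated to Spg, Spc, RSt and ESt for spermatogonia, spermatocytes, round and elongating spermatids. Opossum ABL1 is above 200 CPM in 6 classes and between 2.75 and 7.96 CPM in elongating spermatids; mouse immune and endothelial cells have 2 libraries.

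Contrasts that did not choose the members were tested over all genes with the same edgeR test and thresholds. Spermatocytes were first compared with spermatogonia, that is across entry into meiosis. In the mouse 59.9% of the 15354 genes tested were called (32.4% higher in spermatocytes and 27.5% lower), and 3 of the 9 members tested were, all higher in spermatocytes: LRRC49 by 2.66 ± 0.41 on the log2 scale (SE; edgeR adjusted p = 0.00182), IMPA1 by 2.38 ± 0.30 (0.000903) and YIPF5 by 2.38 ± 0.30 (0.000909). In the opossum 61.1% of 13144 genes were called (32.6% higher and 28.5% lower), and 5 of 9 members were. LRRC49 was higher there by 2.81 ± 0.16 (edgeR adjusted p = 7.54e-06), IMPA1 by 2.71 ± 0.44 (0.000999) and PKHD1L1 by 1.27 ± 0.23 (0.00164). PPP2R2B was lower, at a log2 difference of -2.87 ± 0.27 (edgeR adjusted p = 5.99e-05), and so was BPNT2, at -1.27 ± 0.35 (0.0127), whose call ended without opossum replicate 2 (adjusted p = 0.108) or 3 (0.0822). Without the library as a block in the fit, the edgeR adjusted p was 0.0520 for IMPA1 and 0.117 for PKHD1L1 in the opossum. PRM1 was also measurable in opossum spermatocytes, and its source there was not tested. PRM1 was at 0.937%, 4.60% and 6.40% of its elongating level in opossum spermatocytes and IMPA1 at 0.698%, 3.80% and 3.28% of its own, against at most 0.902% and 1.04% in spermatogonia. Over the 3 opossum spermatocyte clusters IMPA1 was at 29.6, 67.5 and 186 CPM, PKHD1L1 at 86.8, 93.7 and 327 CPM and PRM1 at 441, 2029 and 4409 CPM, and the part of spermatid RNA in the 2 differences was not tested. LRRC49 was at 268, 490 and 178 CPM in the same clusters, and the part of spermatid RNA in its difference was not tested either. Without mouse replicate 3, 7 members were called in the mouse. Over single libraries left out, all genes called ran from 6421 to 9654 (main 9203). On library totals 3035 genes were called higher and 5908 lower in the mouse (4978 and 4225 with TMM), with a median over all genes of -0.78 in place of 0.12. LRRC49 (1.80), IMPA1 (1.46) and YIPF5 (1.46) were still called there on that scale, and CCDC91 (-2.39, edgeR adjusted p = 0.0312) and WNT3 (-2.03, 0.0312) were called lower. In the opossum the same 5 members were called on library totals.

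LRRC49 and IMPA1 were thus called higher in spermatocytes in both species, and neither's difference between species was called (log2 0.20 ± 0.44, edgeR adjusted p = 0.738, and 0.35 ± 0.58, 0.646), which does not show that the species were alike. Of all genes tested for that difference 51.7% were called (25.2% higher in the opossum and 26.5% lower), and of the 10 members 2 were. ABL1 went from spermatogonia to spermatocytes with a log2 change 1.41 ± 0.38 higher in the opossum than in the mouse (edgeR adjusted p = 0.0105), and CCDC91 with one 1.91 ± 0.59 higher (0.0188). CCDC91 was at 114, 126 and 45.2 CPM in mouse spermatogonia and 28.8, 5.73 and 24.1 CPM in mouse spermatocytes, which did not overlap, and at 288, 197 and 341 against 253, 264 and 508 CPM in the opossum, which did. Over the mouse spermatocyte clusters CCDC91 was at 8.17, 3.49, 17.9, 140 and 59.1 CPM and PRM1 at 1158, 832, 543, 2013 and 1553 CPM. The part of spermatid RNA in the CCDC91 difference was not tested, so it is not read as independent of the elongating levels that chose the members. The ABL1 call ended without mouse replicate 1 (edgeR adjusted p = 0.0674), and the CCDC91 call without opossum replicate 2 (0.0582) or 3 (0.0757), each of which left 1 member called. Leaving out any 1 of the other 3 libraries gave 4. All genes called ran from 3417 to 4546 over single libraries left out (main 4299). On library totals 2679 genes were called higher in the opossum and 1329 lower (2092 and 2207 with TMM), and ABL1 (2.16), CCDC91 (2.66) and WNT3 were the 3 members called.

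Spermatocytes were then compared with peritubular or stromal cells, a somatic class. This contrast shares its spermatocytes with the one above. In the mouse 60.5% of 15332 genes were called (33.4% higher in spermatocytes and 27.1% lower) and 7 of 9 members were. LRRC49 was higher in spermatocytes by 2.17 ± 0.40 on the log2 scale (edgeR adjusted p = 0.000373), LIN7C by 1.84 ± 0.44 (0.00238), YIPF5 by 1.32 ± 0.38 (0.00805) and IMPA1 by 1.07 ± 0.42 (0.0382). CCDC91 was lower, at -2.66 ± 0.48 (0.000306), as were PPP2R2B, at -2.38 ± 0.61 (0.00376), and BPNT2, at -1.55 ± 0.43 (0.00625). In these stromal cells PRM1 was at 9.30%, 12.4% and 2.69% of its elongating level and CCDC91 at 14.0%, 13.7% and 6.54% of its own; its part in the differences was not tested. Without mouse replicate 1 the edgeR adjusted p was 0.0584 for LIN7C, 0.181 for YIPF5, 0.337 for IMPA1, 0.0703 for PPP2R2B and 0.053 for BPNT2, and without replicate 2 it was 0.0712 for YIPF5 and 0.272 for IMPA1, so that only CCDC91 and LRRC49 among the 7 kept their calls without each library. On library totals 2845 genes were called higher and 4915 lower (5120 and 4157 with TMM), the median over all genes was -0.40 in place of 0.40, and YIPF5 (0.52, edgeR adjusted p = 0.166) and IMPA1 (0.28, 0.541) were not called. The CPM of both genes overlapped between mouse spermatocytes and stromal cells. CCDC91, PPP2R2B, BPNT2, LRRC49 and LIN7C were called on that scale too.

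In the opossum 57.5% of 13776 genes were called between spermatocytes and peritubular or stromal cells (29.4% higher and 28.1% lower), and 5 of 9 members were. LRRC49 was higher in spermatocytes by 2.34 ± 0.29 (edgeR adjusted p = 0.00201). PPP2R2B was lower, at -2.51 ± 0.36 (0.00292), as were IMPA1, at -1.86 ± 0.43 (0.0136), BPNT2, at -1.56 ± 0.29 (0.00654), and YIPF5, at -1.28 ± 0.40 (0.0377). Opossum stromal IMPA1 was at 66.2, 141 and 302 CPM, 3.19%, 5.38% and 17.5% of its elongating level, and PRM1 at 2.35%, 4.92% and 22.0% of its own. YIPF5 likewise was at between 18.4 and 86.2 CPM, that is 3.68%, 4.67% and 12.3%. The libraries with more PRM1 in the class had more of both genes; its part was not tested. Calls ended without opossum replicate 1 for YIPF5 (adjusted p = 0.0674), replicate 2 for BPNT2 (0.0515) and replicate 3 for IMPA1 (0.0651) and YIPF5 (0.145). On library totals YIPF5 was not called (-1.12, adjusted p = 0.0635), and ABL1 was called higher in spermatocytes (1.1, 0.00887).

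Between the species, this germ to soma difference was called for 42.1% of all genes (17.2% higher in the opossum and 24.8% lower) and for 5 of the 10 members. It was 2.96 ± 0.63 lower in the opossum on the log2 scale for IMPA1 (log2 -2.96, edgeR adjusted p = 0.00434), and likewise lower for YIPF5 (-2.65 ± 0.54, 0.00332) and LIN7C (-2.32 ± 0.58, 0.00896). It was higher in the opossum for CCDC91 (2.39 ± 0.63, 0.0122) and ABL1 (1.36 ± 0.46, 0.0339). The part of spermatid RNA in the IMPA1 and YIPF5 differences, whose opossum stromal levels moved with PRM1, was not tested, and so they are not read as independent of the elongating levels that chose the members. On library totals 2063 genes were called higher in the opossum and 1086 lower (1505 and 2168 with TMM), and the LIN7C call ended (-1.42, adjusted p = 0.0568), while IMPA1 was at -2.06 and YIPF5 at -1.74. The ABL1 call ended when any 1 of 5 libraries was left out (edgeR adjusted p between 0.0519 and 0.133), the exception being mouse replicate 3.

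**Figure D4:**
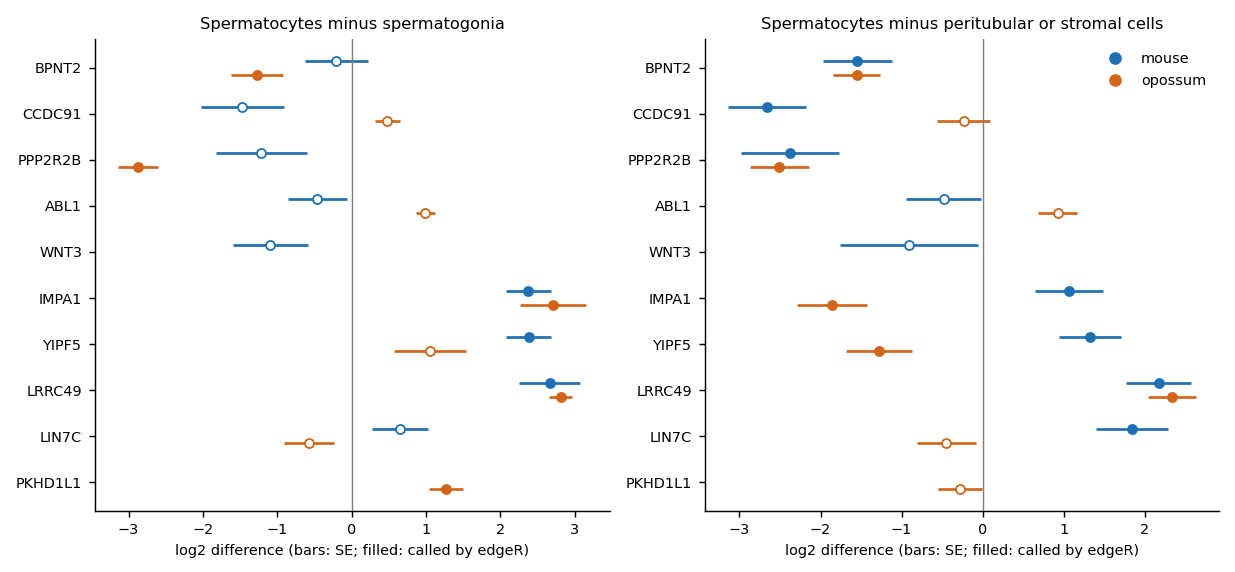
Log2 differences of the members between spermatocytes and spermatogonia (left) and between spermatocytes and peritubular or stromal cells (right), with SE bars, filled points for genes called by edgeR, mouse in blue and opossum in orange. LRRC49 is filled on the same side in both species and both contrasts, whereas IMPA1 and YIPF5 are filled on opposite sides at right with TMM factors but not in the mouse on library totals; WNT3 in the opossum and PKHD1L1 in the mouse were too low to be tested.

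The species were also compared directly within classes other than spermatids, where differences in annotation and in the mapping of reads cannot be told apart from differences in level. The part of the split in shared barcodes among the mouse libraries in these comparisons was not tested. TMM factors were set across both species here. In spermatocytes 66.1% of 8148 matched genes were called (32.2% higher in the opossum and 33.9% lower) and 8 of the 10 members were. ABL1 was higher in the opossum by 3.76 ± 0.51 on the log2 scale (edgeR adjusted p = 0.000311), CCDC91 by 3.34 ± 0.57 (0.000945) and LRRC49 by 1.24 ± 0.32 (0.00762). YIPF5 was lower in the opossum, at -3.94 ± 0.70 (0.00116), as were LIN7C, at -3.73 ± 0.58 (0.000567), and BPNT2, at -1.25 ± 0.49 (0.0461). WNT3 was called lower too, at 1.14, 0.708 and 0.774 CPM in opossum spermatocytes, near the level of 3 counts, and 3.18, 4.00 and 2.38 CPM in mouse ones. PKHD1L1 was called as well, at 62.6, 131 and 165 CPM in opossum and 0.115, 0.217 and 0.329 CPM in mouse spermatocytes. The BPNT2 call ended without mouse replicate 1 or any 1 opossum library (edgeR adjusted p between 0.0669 and 0.146), and without mouse replicate 3 the log2 difference of LRRC49 was 0.73. With the replicate number as a block the BPNT2 call ended too. On library totals it also ended (-0.72, edgeR adjusted p = 0.309), LIN7C was at -2.98, and 2966 genes were called higher in the opossum and 2088 lower (2626 and 2762 with TMM).

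ABL1, LIN7C and PKHD1L1 kept their direction in spermatogonia and peritubular or stromal cells. In spermatogonia 58.3% of 7188 genes were called (26.9% higher in the opossum and 31.4% lower) and 5 of 9 members were: ABL1 (2.36 ± 0.22 higher in the opossum on the log2 scale, edgeR adjusted p = 2.67e-05), CCDC91 (1.27 ± 0.40 higher, 0.0176), LIN7C (-2.57 ± 0.26, 3.96e-05), YIPF5 (-2.47 ± 0.82, 0.0229) and PKHD1L1, at 20.2, 55.3 and 121 CPM in the opossum and 0, 0 and 0.171 CPM in the mouse. The CCDC91 call ended without opossum replicate 3 (adjusted p = 0.0611), and that of YIPF5 without mouse replicate 1 (0.0737) or 2 (0.0529) or opossum replicate 2 (0.0789). In peritubular or stromal cells 52.1% of 7128 genes were called (28.1% higher in the opossum and 23.9% lower) and 6 of 9 members were. These were ABL1 (2.49 ± 0.29, edgeR adjusted p = 0.000162), IMPA1 (1.49 ± 0.52, 0.0349), LRRC49 (1.14 ± 0.41, 0.038), LIN7C (-1.38 ± 0.38, 0.0121), BPNT2 (-1.23 ± 0.31, 0.00777) and PKHD1L1, at 53.5, 109 and 288 CPM in the opossum and 0 in each mouse library. The IMPA1 and LRRC49 calls ended when any 1 of 5 libraries was left out (adjusted p between 0.051 and 0.171), opossum replicate 1 being the exception, and without mouse replicate 3 the log2 difference of BPNT2 was -0.94. The IMPA1 and LRRC49 calls also ended with the replicate number as a block (IMPA1 1.26, adjusted p = 0.0527; LRRC49 1.05, 0.0782), and on library totals (1.28, 0.0614; 0.94, 0.0753), and at 2000 UMIs per cell the log2 differences were -0.22 and -0.34. IMPA1 and PKHD1L1 were highest in the opossum stromal library with the most PRM1 (22.0% of its elongating level), and its part in these differences was not tested.

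The course over age was read from the bulk opossum libraries, in TPM, which scales transcript levels per length to the same total in each library. In whole testis, fewer cells of a type and less RNA per cell cannot be told apart. Summed TPM of the elongating markers was 6.50 and 7.92 at 1M, 17.6 to 192 at 2M, 3040 to 6640 at 3M, 8273 to 11973 at 4M and 8890 to 26051 in adults. Summed stromal markers went from 3441 and 4511 TPM at 1M to between 169 and 904 TPM in adults. YIPF5 and PKHD1L1 were already abundant at 1M, when elongating markers were at their lowest: YIPF5 stood at 301 and 290 TPM and PKHD1L1 at 188 and 188 TPM. IMPA1 stood at 81.7 and 85.4 TPM.

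IMPA1 had its lowest values at 2M (56.9, 19.1, 23.4 and 16.6 TPM for replicates 1 to 4, of which replicate 1 alone was polyA-selected). It was at 76.1, 104, 117 and 74.9 TPM at 3M, 113, 177 and 168 TPM at 4M, and 158 to 425 TPM with a median of 320 in the 7 adults. YIPF5 also had its lowest values at 2M in 3 of the 4 libraries, at 109, 47.6, 47.3 and 51.1 TPM at 2M, 88.1 to 102 TPM at 3M, and 87.0 to 286 TPM with a median of 208 in adults. PKHD1L1 followed, at 129, 46.0, 45.1 and 23.4 TPM at 2M, 126 to 148 TPM at 3M and 87.4 to 298 TPM with a median of 243 in adults. In all 3 genes the polyA library of 2M stood above the 3 depleted ones, and the kit and the replicate cannot be told apart at that age.

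Tests over all 19299 expressed genes used limma on log2(TPM + 1) with the kit as a covariate, with the same thresholds. From 1M to 3M, 54.1% of genes were called (38.5% higher at 3M and 15.6% lower), and 7 of the 9 members tested were. LRRC49 rose by 3.24 ± 0.60 on the log2 scale (SE; limma adjusted p = 0.000248), from 10.6 and 8.66 TPM to 102, 85.7, 100 and 109 TPM. BPNT2 rose by 1.96 ± 0.32 (7.9e-05), from 10.7 and 7.38 TPM to between 31.6 and 43.8 TPM, and ABL1 by 2.40 ± 0.91 (0.0311), from 7.34 and 6.89 TPM to between 34.4 and 46.4 TPM. CCDC91 fell by 1.80 ± 0.34 (0.000306), YIPF5 by 1.61 ± 0.27 (0.000114), PPP2R2B by 1.52 ± 0.61 (0.0402) and LIN7C by 1.35 ± 0.27 (0.000445). No 1M value of these 7 genes overlapped a 3M value, but this was not counted over all genes and adds nothing to the calls. IMPA1 (0.12 ± 0.36, limma adjusted p = 0.779) and PKHD1L1 (-0.46 ± 0.29, 0.172) were not called. With the replicate number as a block the PPP2R2B call ended. With polyA libraries alone 52.9% of 18889 genes were called, and 2 members were called higher and 4 lower. The PPP2R2B call ended when any 1 of the 2 libraries of 1M or the 4 of 3M was left out (limma adjusted p between 0.0539 and 0.21), and the ABL1 call without any 1 of the 2 of 1M or 3M replicates 1 to 3 (0.0506 to 0.125).

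From 3M to the adult, 3.44% of genes were called (1.61% higher in adults and 1.82% lower) and 2 of 9 members were, IMPA1 (a rise of 1.72 ± 0.26 on the log2 scale, limma adjusted p = 0.00157) and YIPF5 (a rise of 1.09 ± 0.20, 0.00715). Summed elongating markers also went from between 3040 and 6640 TPM at 3M to between 8890 and 26051 TPM in adults. The part of elongating spermatids in the members' bulk differences, here and from 1M, was not tested. None of them is therefore read as independent of the elongating levels that chose the members. The YIPF5 call ended with the replicate number as a block (0.99, limma adjusted p = 0.0453) and with no kit covariate (0.92, 0.106). PKHD1L1 (0.90 ± 0.21, 0.0252) passed the p threshold and fell short on size, and was called with FPKM (1.18, 0.00391) and with the replicate number as a block (1.02, 0.0455). From 1M to the adult, 44.8% of genes were called (29.4% higher in adults and 15.4% lower) and 6 of 9 members were; this comparison shares its libraries with the other two. LRRC49 (2.99 ± 0.56, limma adjusted p = 0.000335), IMPA1 (1.85 ± 0.34, 0.00024) and BPNT2 (1.63 ± 0.30, 0.000267) rose. PPP2R2B (-1.61 ± 0.57, 0.0264), CCDC91 (-1.59 ± 0.32, 0.000586) and LIN7C (-1.06 ± 0.25, 0.00213) fell, and the PPP2R2B call ended without 1M replicate 1 (0.0805) or 2 (0.192). Without 1M replicate 2 the log2 difference of LIN7C was -0.98. The PPP2R2B call also ended with the replicate number as a block.

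ABL1 split the libraries of 4 months and of adults. It was at 62.7, 26.2 and 4.81 TPM at 4M and at 3.78, 23.2, 4.11, 37.0, 37.7, 36.1 and 43.8 TPM in adult replicates 1 to 7. The 3 low libraries were 4M replicate 3 and adult replicates 1 and 3. Among all 20 libraries 4M replicate 3 stood apart, with 16566 genes above 0 (20160 to 25293 in the others) and summed red blood cell markers at 31.2 TPM (100.4 or more in the others). The 3 libraries had the lowest summed spermatogonial markers of the 3M, 4M and adult libraries (528 to 599 TPM, the next being 649 in adult replicate 2). Over the expressed genes, deviations from the age means were correlated between libraries of different ages only. Adult replicates 1 and 3 were thus not compared with each other. For 4M replicate 3, r was 0.672 with adult replicate 3 and 0.439 with adult replicate 1. Other pairs passed the latter value too, such as 4M replicate 1 and adult replicate 4 (0.573). Adult replicate 1 had r = 0.620 with 2M replicate 1. Pairs of different ages ran from -0.767 to 0.672. The part of these features in the ABL1 values was not tested. PPP2R2B also varied widely within ages and was at 15.8 TPM in this 4M library against 3.87 and 1.1 TPM in the other two of that age. WNT3 was at or under 0.631 TPM in all 20 libraries and was not tested.

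**Figure D5:**
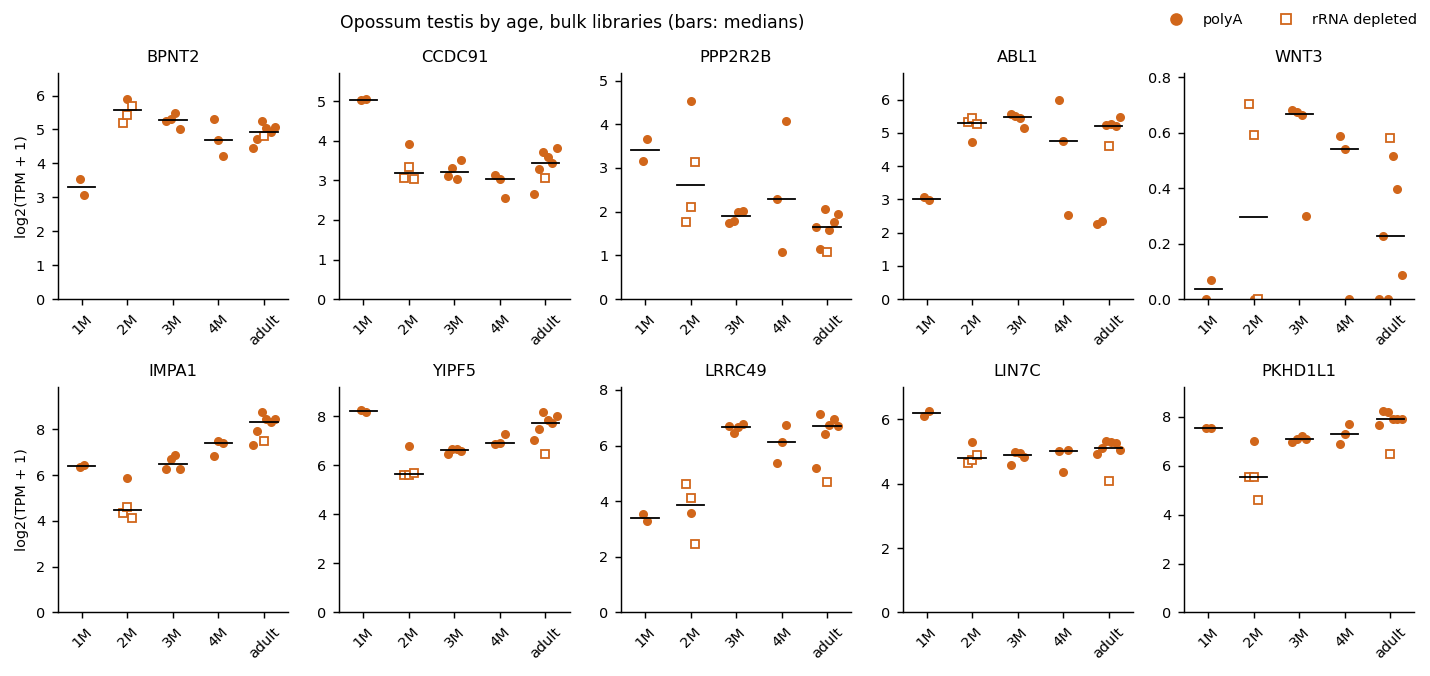
Bulk level of each gene in opossum testis at 1, 2, 3 and 4 months and in adults as log2(TPM + 1) on the y axis, with a point per library, filled for polyA selection and open for rRNA depletion, and bars at the medians. IMPA1, YIPF5 and PKHD1L1 have their lowest medians at 2 months, where 3 of the 4 libraries are rRNA-depleted. The polyA library of that age has YIPF5 above the 3-month values and PKHD1L1 within them. LRRC49 is high from 3 months on, and 3 later libraries have ABL1 under 5 TPM.

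Genes of the members' own pathways were followed in lists that exclude the members. For the difference between species in the change at elongation, 33.9% of the 8579 genes tested were called (19.5% higher in the opossum and 14.4% lower), and the median over all genes was 0.29 on the log2 scale (a positive value is a change higher in the opossum). On library totals 1984 were called higher and 879 lower (1676 and 1236 with TMM), and the median was 0.75, so that folds and list medians are to be read against these medians. All 10 members were called, which the choice of members fixes. The deep opossum cluster held 11286931 UMIs, against 3786361 and 1411896 in the other elongating clusters. Opossum elongating levels of the list genes thus come mostly from it, and they were not followed without it. Of PP2A subunits and partners, 3 were called higher and 2 lower of 13 tested, with a median of 1.40. The catalytic subunit PPP2CA went from 189 ± 29.5 to 949 ± 291 CPM in the opossum and from 4.88 ± 1.26 to 0.345 ± 0.484 CPM in the mouse (SD, n = 3; edgeR adjusted p = 4.36e-05). The scaffold PPP2R1B went from 105 to 349 CPM in the opossum and from 136 to 39.7 CPM in the mouse (2.99, 0.000409). STRN and PPP2R5A were called lower, as PPP2R2B was. STRN went from 3.73 to 15.8 CPM in the mouse and from 9.24 to 2.36 CPM in the opossum (-4.80, 0.00165), whereas PPP2R5A was higher in elongating spermatids of both species, from 3.27 to 30.8 CPM in the mouse and from 44.0 to 83.8 CPM in the opossum (-2.72, 0.00342).

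Of the YIP1 family, 3 were higher and 1 lower of 7 (median 2.59), YIPF4 being called higher (3.82, edgeR adjusted p = 0.00258) from 58.3 to 1.61 CPM in the mouse and 42.2 to 21.4 CPM in the opossum. YIPF7 and YIPF2 were called higher and YIPF6 lower, with opossum means under 7 CPM. Within the opossum YIPF4 was not called at elongation (0.09, adjusted p = 0.892). Of GGA and AP-1 sorting proteins, 3 were higher (M6PR, GGA1 and AP1M1) and 1 lower (SORT1) of 9, with a median of 0.32. GGA1, an adaptor of the family that CCDC91 binds, went from 25.2 to 2.63 CPM in the mouse and from 57.2 to 63.2 CPM in the opossum (3.38, 0.0125), contrary to CCDC91.

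Of the polyglutamylase complex and its enzymes, 2 were higher and 2 lower of 9 (median 0.59). TTLL1, the catalytic subunit that works with LRRC49, went from 27.6 to 9.16 CPM in the mouse and from 44.3 to 115 CPM in the opossum (2.33, edgeR adjusted p = 0.0115), and NICN1, another subunit, was called in the same direction (4.26, 0.00408). Neither was followed without the deep cluster, on which the higher opossum level of LRRC49 rested. AGTPBP1, a deglutamylase, went from 92.2 to 69.1 CPM in the mouse and from 212 to 13.1 CPM in the opossum (-4.07, 6.49e-05), and TTLL9 was lower too (-2.67, 0.0145). Of ABL partners, 1 was higher (WASF1) and 2 lower (WASF2 and ABI2) of 8, with a median of -1.41. WASF2, which drives actin branching, went from 33.0 to 370 CPM in the mouse and from 1.78 to 2.2 CPM in the opossum (-4.25, 0.00101).

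Of the WNT pathway, 2 were higher and 7 lower of 29, with a median of -2.0. DVL3, which relays the signal from the receptors, went from 76.4 ± 18.4 to 0.0303 ± 0.0525 CPM in the opossum and was at or under 1.06 CPM in mouse spermatids (edgeR adjusted p = 3.26e-05). DKK3 (adjusted p = 0.0103) had a like pattern, from 78.3 to 0.252 CPM in the opossum, and WNT2 (-5.25, 0.000631) was lower too. LRP6 (adjusted p = 0.0178) went from 10.6 to 0.904 CPM in the opossum and was at 0.556 and 0.468 CPM in mouse spermatids. Of LIN7 complex members, 0 were higher and 2 lower of 9, with a median of -1.13. APBA1, a partner of LIN7C, went from 287 to 13.2 CPM in the opossum and from 5.37 to 3.43 CPM in the mouse (-4.69, edgeR adjusted p = 0.000286), contrary to LIN7C, and APBA2 was called too (0.0353), with opossum means of 125 and 121 CPM and mouse means of 0.0925 and 0.453 CPM, near the level of 3 counts. None of 6 inositol and sulfation genes (median -1.20) and none of 3 fibrocystin-like genes (median -1.13) was called at elongation.

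In the bulk series the median difference over all genes tested was 0.78 on the log2 scale from 1M to 3M. All 9 genes of the polyglutamylase list rose (limma, median 3.49), as LRRC49 did, against 38.5% of all genes called higher. Of the LIN7 complexes 7 of 9 rose (median 2.58) and LIN7C fell. Of PP2A subunits 6 of 12 rose and 0 fell (median 1.54), whereas PPP2R2B fell, and of GGA and AP-1 proteins 6 of 10 rose and 0 fell (median 1.93), whereas CCDC91 fell. Of the inositol and sulfation genes 1 rose and 3 fell of 6 (median -1.04). Of the WNT pathway 12 rose and 3 fell of 38 (median 0.87), of ABL partners 3 rose and 2 fell of 9 (median 0.19), of the YIP1 family 2 rose and 1 fell of 6 (median 0.25), and neither of 2 fibrocystin-like genes was called (median 1.35).

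The genes whose profile over classes was most like each member's were found by Pearson's r of log2 levels over 25 mouse or 27 opossum sums of a library and class, which share cells, depth and libraries. In the mouse, CCDC91 was most like OTUB2 (r = 0.981) and CABS1 (0.980), and PPP2R2B was also most like OTUB2 (0.972). YIPF5 was most like DLD (0.969). In the opossum, IMPA1 was most like THRB (0.984) and ABHD16B (0.983), and ABL1 and CCDC91 were both most like BRAF (0.970 and 0.963). Opossum LRRC49 was most like LANCL1 (0.958), YIPF5 like AKAP3 (0.944) and PKHD1L1 like CCDC68 (0.927). Mouse PKHD1L1 (0.873, GM2516) and opossum BPNT2 (0.860, RIPOR3) had the weakest best matches of their species.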

How the data were processed

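Single-cell libraries of 3 adult mice and 3 adult opossums and 20 bulk opossum testis libraries were used, grouped by the labels. Per the submitters' processing notes, Cell Ranger 6.0.1 was among the tools of the single-cell data, and HISAT2 2.2.1, SAMtools 1.12 and StringTie 2.1.4 among those of the bulk data. Entries of the deposited single-cell matrices are estimated counts of UMIs and mostly not whole (2.63% to 6.92% of entries were exactly whole, most of them zeros, which made up 1.66% to 6.49%); the step that made them fractional is not given in the sources used here. Where an estimated count is 0, a UMI may still have been read. Per the file headers, the deposited bulk tables hold coverage (a signal), FPKM and TPM per gene; the number of reads is unknown, and aligned bases, from coverage over FPKM, were 2.90 to 7.12 gigabases.

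Cells needed 1000 UMIs and 500 genes, the 8% of each library that scored highest as doublets were left out (Scrublet in scanpy 1.11.5, whose automatic threshold marked 0% to 1.97%), and each species was clustered without the 10 members (2000 variable genes, 30 components, 8 neighbours per library, leidenalg 0.10.2 at resolution 1, seed 1). Clusters were named from marker lists, of which 24 Sertoli genes were found in the mouse and 6 in the opossum, and clusters led by another class's markers were clustered once more. Estimated counts were summed per library and class (20 cells or more), made whole by rounding and tested with edgeR 4.0.16 (TMM, filterByExpr, quasi-likelihood test), with the library as a block within a species, since its classes come from the same testis. Bulk TPM of genes at 1 TPM or more in at least 2 libraries entered limma 3.58.1 on log2(TPM + 1), a scale that understates changes of low genes. Fitted folds of genes at or near 0 in both stages or throughout a group depend on a prior count; levels are given for them instead. Intervals and limits at 3 counts cover counting error only. Nothing in the labels says that bulk replicates of an age were separate animals, so p-values measure the spread between libraries.

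The members, marker lists and gene lists were chosen with earlier results of these data known. The genes named are the members, the 2 genes most like each in a species by Pearson's r over class sums (among genes reaching 20 CPM in a class), and up to 4 called genes per list, taken by size of difference from the contrast at elongation or, where that called too few, from spermatocytes against spermatogonia; not all are printed. After values of the members had been seen, 4 choices were made: the second clustering pass, the alternative of library totals with no scaling factors, alternatives that leave out shallow or deep elongating clusters, and TMM factors computed within each species for differences between species in a contrast of classes (direct comparisons within a class used factors across species). The last followed a test on simulated data in which factors across species called too many unchanged genes. That test also had a limit on the share of planted differences to be recovered, which was missed, was lowered and was then dropped; what is still required is few false calls, right signs and an unshifted median, so a gene not called in a comparison between species, even one with a sizeable difference, is not shown to be alike in both. Alternatives used DESeq2 1.42.0, RLE factors, library totals, no low-count filter, counts rounded up, other UMI minimums, resolution 2, members kept in the clustering, other bulk scales and libraries left out in turn.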

Additional observations from a re-analysis of the deposited data

Results flagged for a closer look

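In 3 of 30 bulk groups of 4 to 7 libraries tested for a value far from the rest, a member had one; chance gives about 1 in 20. IMPA1 at 56.9 TPM and YIPF5 at 109 TPM stood apart in 2M replicate 1, the only polyA-selected library of that age, from 16.6 to 23.4 TPM and 47.3 to 51.1 TPM in the other three. WNT3 stood apart in 3M replicate 4, at 0.231 TPM against 0.583 to 0.605 TPM, a level at which no test was made.

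The change from spermatogonia to spermatocytes differed between opossum and mouse for ABL1 (log2 difference 1.41, edgeR adjusted p = 0.0105, over 15 of 17 alternatives the same call) and CCDC91 (1.91, 0.0188, 13 of 17). The difference between spermatocytes and peritubular or stromal cells differed between the species for ABL1 (1.36, edgeR adjusted p = 0.0339, 9 of 17), LIN7C (-2.32, 0.00896, 15 of 17), IMPA1 (-2.96, 0.00434, 17 of 17), CCDC91 (2.39, 0.0122, 16 of 17) and YIPF5 (-2.65, 0.00332, 17 of 17). None of these alternatives removes spermatid RNA, and PRM1 moved with IMPA1 and YIPF5 over the opossum stromal libraries and with CCDC91 over the mouse ones, so that these counts of alternatives are no sign of stability.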

How the results depend on the processing

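Of the members' log2 differences under other settings, 2204 stayed on the same side of the threshold with the same direction. Of the rest, 104 no longer passed it, 74 newly passed it and 43 changed sign. The causes were not tested. These counts include the contrasts at elongation, which chose the members, so they are no sign of stability. Members called from spermatogonia to spermatocytes in the mouse went from 3 to 6 at 2000 UMIs per cell and 5 on library totals with no factors (3 to 7 without single libraries), and in the difference between species from 2 to 7 at 2000 UMIs, 5 at resolution 2 and 1 with no replicate block (1 to 4 without single libraries). All genes called moved too. Without single libraries they were 6421 to 9654 in the mouse (main 9203) and 3417 to 4546 in the difference between species (main 4299). The share of all genes called is not given here for each setting, so these counts are not read as changes particular to the members. Between spermatocytes and stromal cells they went from 5 to 3 in the opossum at 500 UMIs and with no replicate block (3 to 4 without single libraries) and from 7 to between 2 and 7 in the mouse without single libraries. Without single libraries all genes called were 5129 to 8881 (mouse) and 2415 to 3957 (difference between species) for that contrast, 4603 to 9301 (mouse) and 3878 to 6688 (opossum) at elongation, 129 to 1052 from 3M to adult (main 663; 129 without 3M replicate 1) and 5439 to 9925 from 1M to adult. From 3M to adult 340 genes were called on log2(TPM + 0.1), 433 with no filter and 998 with a replicate block. With no kit covariate 1 member and 529 genes (2.74%) were called. Between species in stromal cells 2137 genes were called at 2000 UMIs (main 3711).

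Replicate numbers did not pair samples: same-numbered bulk libraries of different ages had a median correlation of deviations of 0.000502 (29 pairs, -0.285 to 0.672). Other pairs of different ages had a median of 0.005 (124 pairs, -0.767 to 0.573), and same-numbered mouse and opossum libraries had mixed signs. The replicate block ended the calls of BPNT2 in spermatocytes and of IMPA1 and LRRC49 in stromal cells between species, of PPP2R2B in bulk from 1M to 3M and to adult, and of YIPF5 from 3M to adult (log2 0.99).

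Signs changed as follows. From spermatogonia to spermatocytes: LIN7C in the mouse on library totals (-0.26); BPNT2 in the mouse without replicate 2 (-0.62 to 0.12 over single libraries left out); LIN7C in the opossum at 2000 UMIs (0.33) and resolution 2 (0.54); between species IMPA1 without opossum replicate 1 (-0.068 to 0.79), LRRC49 without mouse replicate 3 (-0.24 to 0.57), and PKHD1L1 with DESeq2 (0.011), rounding up (0.049) and 2000 UMIs (2.30). Between spermatocytes and stromal cells in the opossum: CCDC91 without replicate 1 (-0.70 to 0.061) and LIN7C at 2000 UMIs (0.19). In the difference of that contrast between species: BPNT2 with RLE (0.15), library totals (0.85), DESeq2 (0.33), no filter (0.075), TMM across species (0.33), and without mouse replicates 1 (0.12) or 3 (0.11) or opossum replicates 2 (0.01) or 3 (0.03); LRRC49 rounded up (-0.22), at resolution 2 (-0.26) and without opossum replicate 1 (-0.13); PKHD1L1 with DESeq2 (0.45); PPP2R2B with RLE (0.033), library totals (0.77), DESeq2 (0.21), 2000 UMIs (0.11), TMM across species (0.22), and without mouse replicate 3 or opossum replicate 1 (-0.57 to 0.52). At elongation: LRRC49 in the opossum without the deep cluster (-0.25). Between species in spermatogonia: BPNT2 at 2000 UMIs (0.42), resolution 2 (0.35) and without opossum replicate 1 (-0.31 to 0.078), LRRC49 at 2000 UMIs (-1.29) and resolution 2 (-1.17). Between species in stromal cells at 2000 UMIs: IMPA1 (-0.22) and LRRC49 (-0.34), both called in the main fit and not in several others. In bulk with FPKM: IMPA1 from 1M to 3M (-0.41), and LRRC49 (0.037) and PPP2R2B (0.11) from 3M to adult, PPP2R2B also without adult replicate 3 (-0.19 to 0.030). WNT3 within the opossum and in bulk, and PKHD1L1 between mouse spermatocytes and other classes, were too low at this depth to be tested.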
